A study of Sus scrofa with 12 samples.

Results

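The comparison described here set 3 si-4c libraries against 3 con-2c libraries, 6 of the 12 libraries of a SMART-seq series on porcine (Sus scrofa) embryos made by in vitro fertilisation. It crosses the treatment with the stage: the members were chosen by library title, si-4c from embryos given si-CCNB2, a short interfering RNA (siRNA) against cyclin B2, and con-2c from embryos that the labels call blank control. The other 6 libraries, 3 of con-4c and 3 of si-2c, form the opposite crossed pair and share no library with this one. Each library was made from a pool of embryos, and per the methods of the study the siRNA was injected into fertilised eggs.

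The stage of the libraries is not settled by the labels. Libraries titled 2c carried a 4-cell tissue label and libraries titled 4c carried a 2-cell tissue label, in all 12 libraries. Under the titles and under the tissue labels alike, si-4c and con-2c differ in both stage and siRNA, so the parts of stage and of siRNA in any difference cannot be told apart. With stage labels exchanged in the si or the control libraries only, both groups would be of the same stage, which was not tested. The methods describe the controls as normal embryos and also as the NC group of the siRNA, so it was not clear whether they had been injected. The group names are used below as titles only. Nothing in the labels says that replicate libraries came from separate fertilisations, so the p-values measure the spread between these libraries, which may be technical.

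Cyclin B2 is a B-type cyclin. It binds the kinase CDK1 and the pair drives entry into M phase, in meiosis as in the cleavage divisions. Early embryos run at first on mRNA stored in the oocyte. Those maternal transcripts are then cleared while the embryo's own genome starts to be transcribed, the maternal-to-zygotic transition, which in the pig centres on the 4-cell stage. SMART-seq copies polyadenylated RNA with an oligo(dT) primer, so a gene's scaled value reports its relative share of the polyadenylated RNA in the pool. A loss of cells or RNA shared by all genes does not show in such a share. For a single gene, fewer cells and less RNA per cell cannot be told apart.

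The supplementary oligonucleotide list of the study names a pair of siRNAs against CCNB2, shown because they define the treatment. The capitals mark bases 12 to 18, which pair with bases 2 to 8 of a guide strand that is the exact complement of the 19 listed bases. Which of the pair was injected for these libraries was not clear.
Si-CCNB2-2: gcuuauaccagUUCCCAAa
Si-CCNB2-1: gcagguccacuCCAAGUUu
The first 11 bases of Si-CCNB2-2 are identical to the last 11 bases of the forward CCNB2 primer that the study used for RT-qPCR, which places this siRNA on the sense strand of the amplified stretch.

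Depth was similar in both groups, with totals of 33833611 to 39510908 counts in con-2c and 36612707 to 38281817 counts in si-4c. Genes with at least 1 count numbered 18034 to 18819 in con-2c and 18083 to 18231 in si-4c. The con-2c replicate 3 library stood somewhat apart from the other con-2c libraries, with a scaling factor of 0.962 against 0.852 and 0.854, and results that rest on it are given below with and without it. All 8 oocyte and early embryo markers were detected in every library, GDF9 at 577 to 645 CPM (counts scaled to a library of 1000000) in con-2c and 632 to 663 in si-4c. The cumulus marker HAS2, the sperm marker AKAP4 and the macrophage marker CD68 had 0 counts in all 6 libraries, and the other measured ones of a short set of defining markers stayed below 1 CPM. The longer lists were not at that floor. The cumulus and granulosa list summed to 342 to 416 CPM in con-2c and 343 to 348 in si-4c, with 4 of 12 tested members at 1 CPM or more, mostly VCAN at means of 334 and 295 CPM. The sperm list summed to 64.9 to 69.8 and 62.2 to 69.6 CPM, mostly LDHC, and the blood list to 19.7 to 25.7 and 19.2 to 22.5 CPM, mostly PECAM1. The ranges of the 2 groups overlapped for all 3 lists. Throughout, CPM values are scaled for library composition (TMM).

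Few genes separated si-4c from con-2c. Of 17995 genes tested, 54 were called lower in si-4c and 6 higher, at an adjusted p below 0.05 and a log2 fold change of at least 1 in size (edgeR quasi-likelihood test, Benjamini-Hochberg adjustment), which is 0.300% and 0.0333% of the genes tested and 0.333% in either direction. For scale, the same model called 2598 genes (14.4%) higher and 584 (3.25%) lower in con-4c against con-2c, a comparison that shares the con-2c libraries. In si-4c against si-2c, which shares the si-4c libraries, it called 264 (1.47%) higher and 2136 (11.9%) lower. For si-4c against con-2c the median log2 fold change over all tested genes was 0.00.

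That few genes were called does not by itself show equal levels, so the interval of each difference was read. Among the 6063 genes with a mean of at least 10 CPM in either group, the 95% interval of the log2 fold change lay wholly between -1 and 1 for 6031 (99.5%), with a median SE of 0.113. At a mean of at least 1 CPM it did so for 9134 of 11153 genes (81.9%). Over all tested genes the share was 52.4% of the 17519 with an interval, so for many low genes the interval reached past a 2-fold difference.

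**Figure D1:**
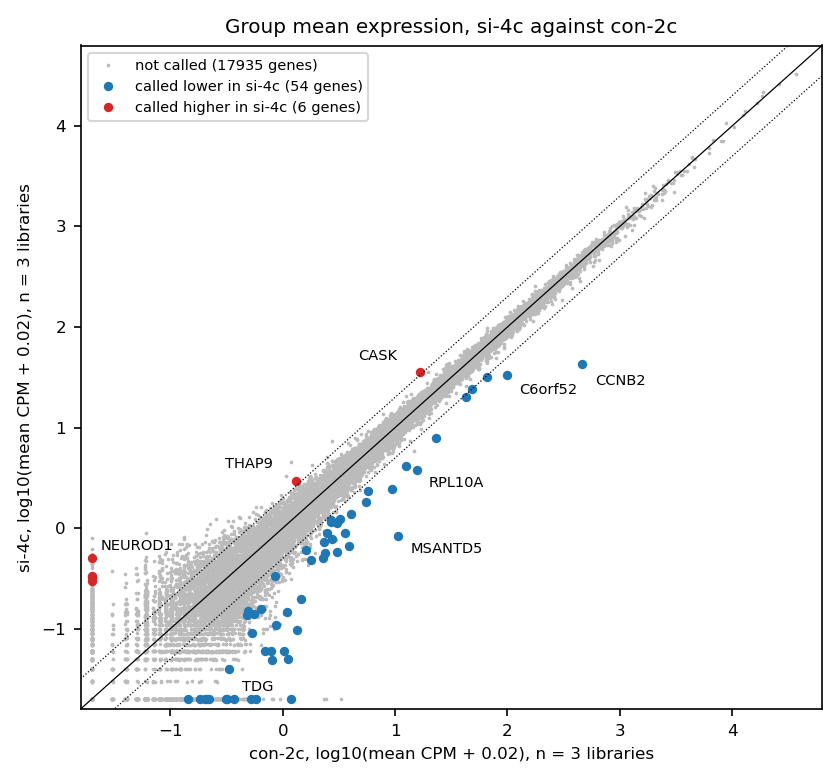
Mean expression of each tested gene in con-2c (x axis) and si-4c (y axis), as log10 of CPM plus 0.02, 3 libraries per group. The solid line marks equal means and the dotted lines a 2-fold difference; the 54 genes called lower (blue) and 6 called higher (red) lie mostly at low levels, with CCNB2 and C6orf52 among the few at high ones.

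CCNB2 itself checks the labels. It stood at 463, 487 and 444 CPM in the con-2c libraries and at 40.7, 46.8 and 40.3 CPM in the si-4c libraries. Every si-4c library lay far below every con-2c library, and the si-4c mean was 9.18% of the con-2c mean. The log2 fold change was -3.45 ± 0.14 (SE; 95% interval -3.74 to -3.15), with an adjusted p of 4.43e-10 by edgeR. In the opposite crossed pair the levels were 510, 485 and 429 CPM in con-4c and 17.8, 28.8 and 21.6 CPM in si-2c. The controls of both titles therefore carried similar CCNB2 levels, and both si groups were low. The CCNB2 gene lies on chromosome 1 at 112907047 to 112942218 (RefSeq, Sscrofa11.1).

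The partners of CCNB2 in the B-type cyclin system were not called. CCNB1, the other main mitotic B-type cyclin, stood at 2402, 2217 and 1809 CPM in con-2c and at 2134, 2261 and 2026 CPM in si-4c. These libraries overlapped, and the log2 fold change was -0.00 ± 0.11 (95% interval -0.23 to 0.23). CCNB3, a B-type cyclin of meiosis, was at 114, 113 and 113 CPM in con-2c and 128, 133 and 125 CPM in si-4c, a difference of 0.19 ± 0.08 (adjusted p = 0.41 by edgeR). CCNA2, which acts in S phase and early mitosis, differed by 0.08 ± 0.08 (95% interval -0.10 to 0.25). CDK1, the kinase that cyclin B2 activates, differed by -0.07 ± 0.13 (-0.35 to 0.21). For these genes the intervals leave room only for differences well under 2-fold.

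Across the 34 tested genes of the cyclin and CDK1 network, CCNB2 was the only one called, against 0.333% of all genes, and the median log2 fold change was -0.06. None of the 26 tested genes of the anaphase-promoting complex and spindle checkpoint was called, and the interval lay within a 2-fold difference for 24 of them. The 41 genes of chromosome segregation and spindle gave 0 calls with 40 such intervals, and the 53 actin cytoskeleton genes gave 0 calls with 42. None of the 46 genes of maternal mRNA clearance was called and 44 had such intervals. Within that list BTG4, an adaptor of the CCR4-NOT deadenylase and one of the most abundant transcripts, stood at 20183, 20098 and 15431 CPM in con-2c and 20921, 19306 and 18786 CPM in si-4c. Its libraries overlapped, with con-2c replicate 3 the lowest of the 6, and the difference was 0.08 ± 0.11.

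Lists that follow the injected agent and stress also gave 0 calls each, which at 0.333% called over all genes is the background for lists of this size, as it is for those above: 17 genes of the RNA interference machinery, 34 of the response to double-stranded RNA and interferon, 40 of the p53 and DNA damage response, 24 of apoptosis and 46 of the heat shock and unfolded protein response. Their medians lay between -0.03 and 0.01. TNRC6B, a partner of the Argonaute proteins in the RNA interference list, passed the adjusted p at a smaller fold (log2 fold change -0.36, adjusted p = 0.0337 by edgeR). In the double-stranded RNA list only 16 of 34 intervals lay within a 2-fold difference, and in the apoptosis list 14 of 24. Of the 18 wider intervals in the former 16 belonged to members below 1 CPM in both groups, and of the 10 in the latter 9 did. The 45 genes of nucleotide metabolism and the 24 oocyte and embryo transcripts gave 0 calls. OOEP, a subunit of the subcortical maternal complex, did so too (log2 fold change -0.38, adjusted p = 0.0379).

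**Figure D2:**
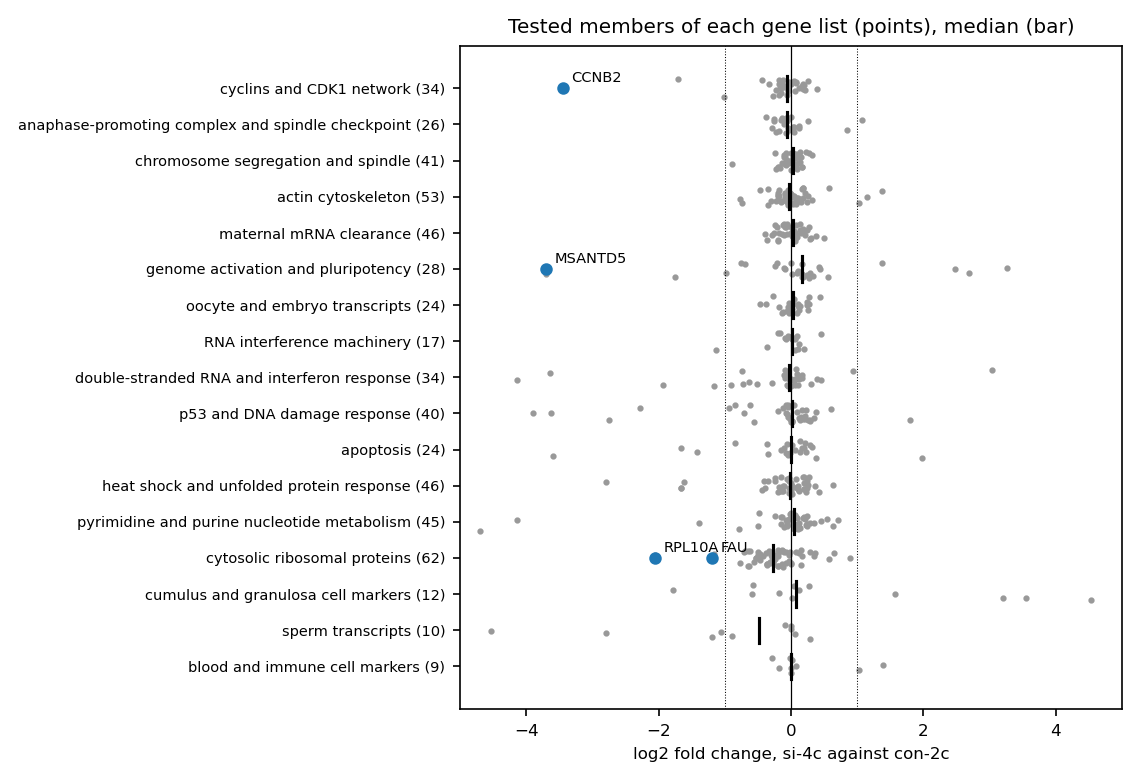
Log2 fold change of si-4c against con-2c for every tested member of each gene list (grey points, with the number tested in brackets), the list median (black bar) and the called members (blue, named). Dotted lines mark a 2-fold difference and 1 member beyond the axis is drawn at its edge; only CCNB2, MSANTD5, RPL10A and FAU were called.

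Beyond CCNB2, the largest separations at moderate or high levels were found in few genes. At a mean of at least 10 CPM in either group, 8 genes besides CCNB2 were called lower and 1 higher. C6orf52, an open reading frame of undescribed function, stood at 86.9, 112 and 99.1 CPM in con-2c and 37.6, 30.0 and 32.2 CPM in si-4c. All 3 si-4c libraries were below all 3 con-2c libraries, as were those of every one of the 60 called genes in its own direction; over all tested genes the libraries did not overlap in 14.1%, 7.31% with si-4c lower and 6.76% with si-4c higher. The log2 fold change of C6orf52 was -1.58 ± 0.13 (adjusted p = 3.23e-06 by edgeR). Its level was 42.1 to 47.6 CPM in con-4c and 23.8 to 32.2 CPM in si-2c, so con-2c was the group that stood apart, at 224% of con-4c.

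CASK, a membrane-associated scaffold of the MAGUK family with a kinase-like domain, was the 1 gene called higher at that level. It stood at 18.6, 15.5 and 16.3 CPM in con-2c and 35.6, 36.4 and 34.8 CPM in si-4c. The si-4c libraries were close together and above every con-2c library, with a log2 fold change of 1.08 ± 0.13 (adjusted p = 2.80e-04 by edgeR). In the other groups CASK was at 7.47 to 8.85 CPM in con-4c and 9.27 to 12.3 CPM in si-2c, with a difference of 0.34 between those groups that did not pass the test (adjusted p = 0.15). Its gene lies on chromosome X at 37166973 to 37535723.

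A pair of unnamed genes showed a level in si-4c well below that of every other group. ENSSSCG00000052923 was at 69.2, 65.9 and 64.1 CPM in con-2c and 34.4, 28.7 and 32.2 CPM in si-4c, with a log2 fold change of -1.06 ± 0.09 (adjusted p = 1.33e-05 by edgeR). Its 6 libraries of con-4c and si-2c lay between 55.2 and 69.4 CPM, above all si-4c libraries. ENSSSCG00000054366 was at 48.4, 51.7 and 45.8 CPM in con-2c and 26.9, 21.6 and 23.6 CPM in si-4c, with a log2 fold change of -1.02 ± 0.10 (adjusted p = 4.48e-05). The other groups held it at 36.9 to 48.7 CPM, again above si-4c. Both were singled out after their values were seen.

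Another unnamed gene, ENSSSCG00000036186, was lower in si-4c and had the opposite sign in the other crossed pair. It stood at 13.4, 11.5 and 12.5 CPM in con-2c and 3.15, 4.31 and 4.84 CPM in si-4c (log2 fold change -1.6 ± 0.21, adjusted p = 6.76e-04 by edgeR). In con-4c it was at 5.43, 5.90 and 3.77 CPM and in si-2c at 8.06, 10.8 and 8.22 CPM, a difference of 0.84 with an adjusted p of 0.0168 and under 2-fold. It too was chosen after its values were seen.

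**Figure D3:**
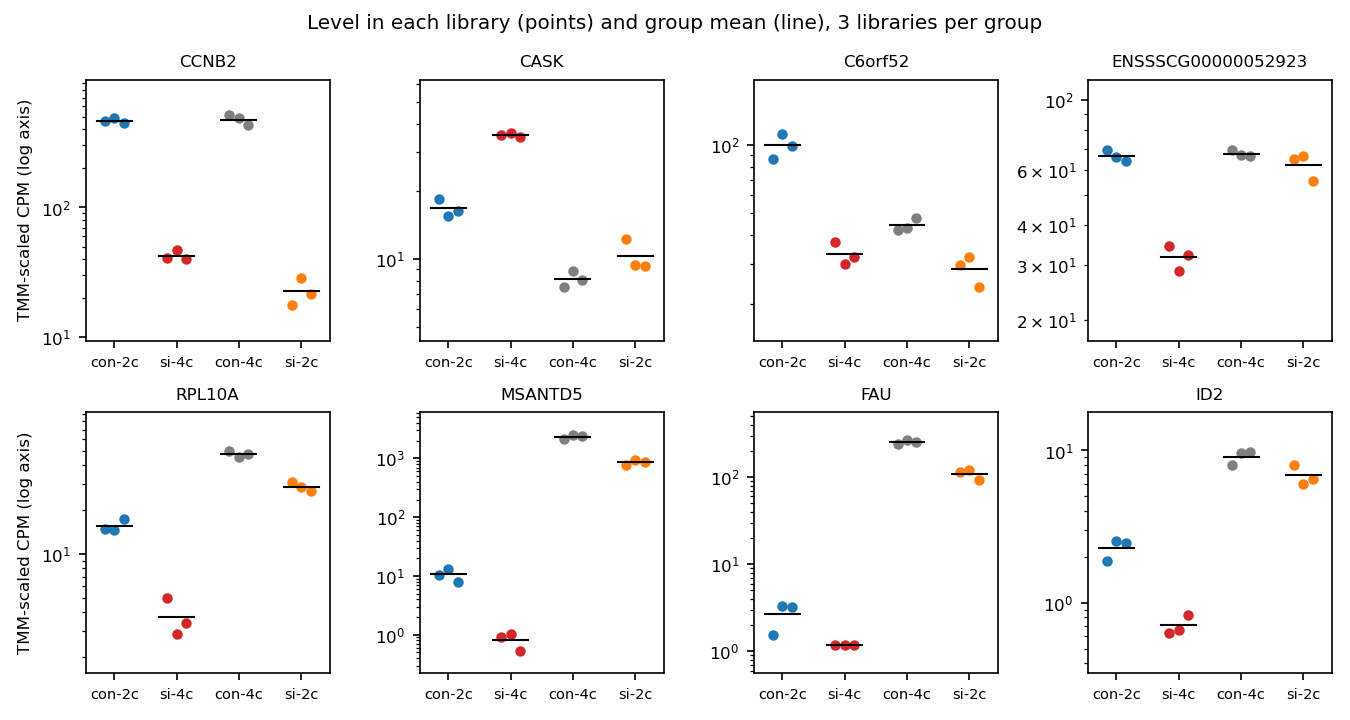
CPM of 8 called genes in each library (points, log axis) with the group mean (line), for the 3 libraries of each group. CCNB2 was low in both si groups, CASK was highest and ENSSSCG00000052923 lowest in si-4c, and MSANTD5, FAU, RPL10A and ID2 were lowest in si-4c and highest in con-4c.

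Most of the genes called lower shared a further property: they were far more abundant in con-4c. Of the 54, 33 had a con-2c level below 5% of their con-4c level, a cut chosen after the values were seen. Over all tested genes the share was 7.26%, from which nothing is read, since 7 of the 33 passed the low-count filter only through con-4c and si-2c. When only the 6 libraries were fitted, 26 of the 33 were tested, 10 were called and 16 lost their call. In all 33, the si-4c level was also below 5% of the si-2c level. Their median levels were 1.32 CPM in con-2c, 0.177 in si-4c, 109 in con-4c and 69.2 in si-2c. Expressed as a percentage of the con-4c mean, the median over these genes was 0.882, 1.26 and 0.999 in the con-2c libraries and 0.170, 0.117 and 0.122 in the si-4c libraries. The con-2c means of the 33 ran from 0.122 to 43.0 CPM, with 14 below 1 CPM, and the si-4c mean was at most 46.4% of the con-2c mean (median 18.6%). Because they were called from these same libraries, the medians are a description.

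MSANTD5, a gene with a Myb/SANT-like DNA-binding domain, was the clearest of them. Its level was 10.6, 13.3 and 8.02 CPM in con-2c and 0.900, 1.01 and 0.538 CPM in si-4c. The 2 groups were wide apart, with the si-4c mean at 7.69% of the con-2c mean and a log2 fold change of -3.69 ± 0.22 (adjusted p = 7.37e-08 by edgeR). In con-4c it reached 2165, 2522 and 2360 CPM and in si-2c 775, 952 and 866 CPM. The con-2c level was 0.452% of that of con-4c, and the si-4c level 0.0944% of that of si-2c. MSANTD5 had been put on the list of genome activation and pluripotency genes from earlier results of these libraries, so its place there is not independent evidence. Of the 28 tested genes of that list it was the only one called, and the list median was 0.17.

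Other named genes of the activation list were not called. EIF1AX, a translation initiation factor, stood at 35.2, 35.4 and 29.0 CPM in con-2c and 39.95, 38.6 and 41.7 CPM in si-4c, a difference of 0.27 ± 0.09 (adjusted p = 0.227 by edgeR). DPPA2, a regulator of embryonic gene activation, was at 37.6, 36.2 and 36.6 CPM in con-2c and 49.2, 35.05 and 35.06 CPM in si-4c, so that si-4c replicate 1 alone lay above the rest (0.11 ± 0.12, adjusted p = 0.834). SLC31A1, a copper transporter, was at 25.2, 33.0 and 27.5 CPM in con-2c and 18.3, 18.2 and 16.5 CPM in si-4c, without overlap and with a log2 fold change of -0.70 ± 0.10 (adjusted p = 0.00112). It passed the adjusted p but not the fold, and it too had been listed from earlier results. In con-4c the 3 genes stood at means of 174, 171 and 834 CPM.

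TDG, the thymine DNA glycosylase that removes oxidised methylcytosine, had 0 counts in all 3 si-4c libraries and 34 counts over the con-2c libraries (0.286, 0.327 and 0.430 CPM). Its con-2c level was 11.8-fold above the floor of 3 counts over the si-4c libraries, a ratio that leaves out the counting error of con-2c. In con-4c it was at 51.8 to 55.3 CPM and in si-2c at 21.1 to 23.1 CPM. HIST1H2BD, a histone H2B gene, fell from 1.11, 1.6 and 2.03 CPM in con-2c to 0.630, 0.636 and 0.508 CPM in si-4c (log2 fold change -1.42 ± 0.24, adjusted p = 0.0098 by edgeR), beside 67.5 to 68.8 CPM in con-4c. SUPT4H1, a subunit of the elongation factor DSIF, was at 1.75, 4.72 and 2.55 CPM in con-2c and 1.02, 1.10 and 1.16 CPM in si-4c (-1.46 ± 0.29, adjusted p = 0.0287). Its con-2c libraries were spread widely with replicate 2 the highest, and it was no longer called without that library or without any one of the si-4c libraries.

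RPL10A, a protein of the large ribosomal subunit, was the more stable of 2 called ribosomal genes. It stood at 14.8, 14.5 and 17.3 CPM in con-2c and 4.98, 2.83 and 3.40 CPM in si-4c, with all si-4c libraries lower and a log2 fold change of -2.05 ± 0.16 (adjusted p = 3.23e-06 by edgeR). In con-4c it was at 45.4 to 49.9 CPM and in si-2c at 26.6 to 30.9 CPM. FAU, the precursor of a ubiquitin-like protein fused to the small-subunit protein RPS30, was at 1.53, 3.33 and 3.20 CPM in con-2c and 1.17, 1.19 and 1.19 CPM in si-4c (-1.19 ± 0.24, adjusted p = 0.0334). Its con-2c replicate 1 was close to the si-4c libraries. Ribosomal protein and histone genes have many near-identical copies, and how reads shared between copies were counted was not given in the sources used here, so these values are uncertain.

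The ribosomal genes as a list leaned the same way at small size. Of 62 tested cytosolic ribosomal protein genes 2 were called (0.333% of all tested genes were). FAU, 1 of the 2, kept its call in only 1 of the 6 fits that left out a library of the comparison. The adjusted p at any fold was passed by 5, and the median log2 fold change was -0.27 beside 0.00 over all genes. In 20 of the 62 (32.3%, against 7.31% of all tested genes) all si-4c libraries lay below all con-2c libraries and in 1 they lay above (6.76% over all genes). The summed level of the list was 3440 to 3640 CPM in con-2c and 3060 to 3220 CPM in si-4c, so the groups did not overlap. RPL27, RPL37 and RPL36 had log2 fold changes of -0.71, -0.69 and -0.62. The lean was not particular to this pair. In si-2c against con-4c the list median was -0.97, and 25 of the 62 were called lower, against 1.63% of all tested genes. In con-4c against con-2c the list median was 1.56.

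The remaining named genes with lower levels had other roles. ID2, an inhibitor of helix-loop-helix transcription factors, fell from 1.88, 2.53 and 2.46 CPM to 0.630, 0.665 and 0.836 CPM (log2 fold change -1.68 ± 0.24, adjusted p = 0.00159 by edgeR). CPSF4, a subunit of the pre-mRNA cleavage and polyadenylation factor, fell from 5.54, 4.78 and 6.73 CPM to 1.80, 2.81 and 2.30 CPM (-1.30 ± 0.25, adjusted p = 0.02). CYTH2, an exchange factor for ARF GTPases, fell from 2.90, 2.79 and 2.37 CPM to 1.08, 1.24 and 1.08 CPM (-1.24 ± 0.25, adjusted p = 0.0287). Unlike the 33 genes above, these 3 were within a few fold in con-4c: ID2 at 8.0 to 9.75 CPM, CPSF4 at 2.55 to 3.46 CPM and CYTH2 at 4.14 to 6.52 CPM. TFB2M, a mitochondrial transcription factor, was at 0.286, 0.683 and 0.892 CPM in con-2c and 0.150, 0.145 and 0.119 CPM in si-4c.

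The genes called higher other than CASK were all low. THAP9, a protein with a THAP domain derived from a transposase, was at 1.21, 1.28 and 1.35 CPM in con-2c and 3.42, 2.72 and 2.72 CPM in si-4c (log2 fold change 1.20 ± 0.25, adjusted p = 0.0347 by edgeR). The other 4 had 0 counts in every con-2c library. NKX2-1, a homeobox transcription factor of thyroid and lung, had 32 counts over the si-4c libraries, 10.3-fold above the floor of 3 counts over con-2c. NEUROD1, a neurogenic bHLH factor, had 49 counts, 15.7-fold above that floor. EIF4EBP3, an inhibitor of the cap-binding protein eIF4E, had 31 counts (9.95-fold). RRP9, a component of the U3 small nucleolar ribonucleoprotein, had 28 (8.98-fold). Each of the 4 was detected in all 3 si-4c libraries, at 0.180 to 0.538 CPM, and in con-4c and si-2c at 0.195 to 2.31 CPM. NKX2-1, EIF4EBP3 and RRP9 passed the low-count filter only through con-4c and si-2c.

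Many of the called genes rested on low counts, as did many of those tested. In 25 of the 60 (41.7%), beside 38.0% of all tested genes, the mean was below 1 CPM in both groups. In 15 of the 60 all libraries of 1 group had 0 counts, 11 of them in si-4c. For those 11 the counts over con-2c were 12 to 114, and their ratios to the floor ran from 4.16-fold to 39.5-fold. The table gave a symbol for 23 of these 60 (38.3%), while it did so for 67.0% of everything tested. The smaller share was in the genes called lower, 17 of 54, while all 6 genes called higher had one.

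Below a 2-fold difference, the adjusted p was passed by 61 more genes, of which si-4c was the lower group in 48 and the higher in 13. RPP21, a subunit of ribonuclease P, had a log2 fold change of -0.63 (mean 378 CPM in con-2c and 245 in si-4c, adjusted p = 8.40e-04 by edgeR). CDKN3, a phosphatase that acts on cyclin-dependent kinases, had -0.72 (306 and 185 CPM, adjusted p = 0.00167). NDUFA6 and NDUFB2, subunits of respiratory complex I, had -0.61 and -0.57. Among the higher ones M6PR, a receptor for mannose 6-phosphate, had 0.87 (19.5 and 35.5 CPM, adjusted p = 0.00211). These were the genes with the smallest p among those for which a role is stated, chosen after their values were seen.

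The opposite crossed pair, si-2c against con-4c, uses other libraries and gave 293 genes called lower (1.63%) and 29 higher (0.161%). Of the genes lower in si-4c, 13 were also called lower there, which is 24.1% of the 54 and 4.44% of the 293, and 0 genes were called higher in both. The 13 include CCNB2, MSANTD5, TDG, FAU and TFB2M, and the other 8 have no symbol. ENSSSCG00000028810 was at 39.2, 50.2 and 39.7 CPM in con-2c and 23.9, 18.2 and 17.7 CPM in si-4c, and its log2 fold changes were -1.11 here and -1.34 in si-2c against con-4c. ENSSSCG00000053554 was at 20.4, 29.4 and 19.9 CPM in con-2c and 6.99, 6.68 and 10.01 CPM in si-4c, with -1.56 here and -1.37 there. ENSSSCG00000060073 and ENSSSCG00000053848 ran nearly level with each other in con-4c, at 613 to 624 and 609 to 619 CPM, and whether they share reads was not tested. The difference between the crossed comparisons was itself called for 225 genes (1.25%) over the whole table. By construction it equals con-4c against con-2c plus si-4c against si-2c, the summed difference between the titles, and is not an interaction of siRNA with stage.

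**Figure D4:**
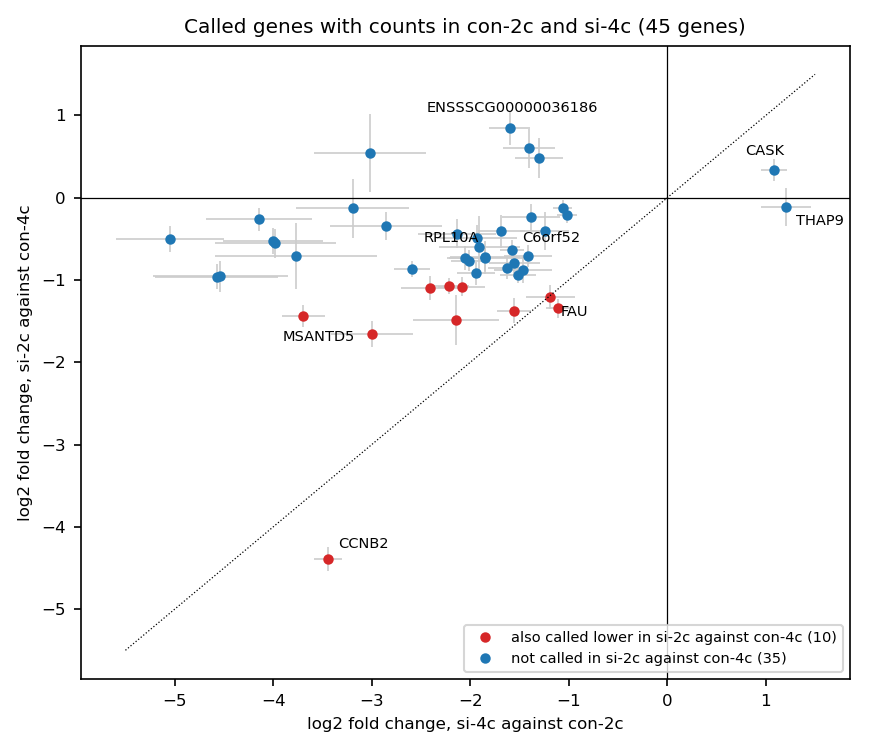
Log2 fold change of si-4c against con-2c (x axis) and of si-2c against con-4c (y axis), with SE bars, for the 45 called genes that had counts in both con-2c and si-4c. Red points (10) were also called lower in si-2c against con-4c and blue points (35) were not; CCNB2 lies at -3.45 and -4.39, and CASK at 1.08 and 0.34.

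The called genes differed widely in how well they held when the analysis was changed. Each was followed through 24 alternatives that vary the scaling, the low-count filter, the test, the libraries in the fit or the replicate block, 12 of which leave out 1 library each. For all 60 genes the sign of the difference was kept in every alternative that tested them. Their libraries did not overlap between the groups, so the sign could hardly change and nothing is read from it. CCNB2 and C6orf52 were called in all 24. A further 8 genes were called in every alternative in which they were tested, among them MSANTD5, RPL10A, ENSSSCG00000053554 and ENSSSCG00000036186. CASK was lost only when a fold above 1.5 was tested for (glmTreat), where its adjusted p was 0.0584.

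Leaving out each of the 6 libraries of the comparison in turn separated the genes further. In these fits 28 of the 60 genes were called every time, 27 lower and 1 higher, the latter being CASK. Of these 28, 24 passed the low-count filter when only the 6 libraries were fitted and 14 were called there, and limma-voom called 11. The other 4 entered the test only through con-4c and si-2c. TDG, ID2 and HIST1H2BD were among the 27 but were lost in both: ID2 had adjusted p values of 0.0636 in edgeR with 6 libraries and 0.1 in limma-voom, HIST1H2BD 0.250 and 0.403, and TDG, with an adjusted p of 0.101 in limma-voom, did not pass the low-count filter within the 6 libraries and was tested through the groups where it is high. Some genes slipped under the 2-fold threshold while still passing the adjusted p. ENSSSCG00000028810 had a log2 fold change of -0.98 without con-2c replicate 2 (adjusted p = 6.19e-04 by edgeR), ENSSSCG00000052923 fell just short of the threshold without si-4c replicate 2 (1.53e-04), and ENSSSCG00000054366 -0.97 and -0.95 without con-2c replicate 2 or si-4c replicate 2 (4.79e-04 and 6.72e-04). CPSF4 was lost without con-2c replicate 3, si-4c replicate 1 or si-4c replicate 3, where its adjusted p was 0.0584 to 0.0862 and its log2 fold change -1.30 to -1.15. THAP9, EIF4EBP3 and RRP9 were lost without any one of the 6, and NEUROD1, FAU, CYTH2 and TFB2M were called in only 1 of the 6 fits. NKX2-1 had an adjusted p of 0.0522 without con-2c replicate 2 and 0.0292 to 0.0354 without each other library of the 6. It was also lost in limma-voom (adjusted p = 0.279). Like EIF4EBP3 and RRP9, it did not pass the low-count filter within the 6 libraries. When con-2c replicate 3, the library that stood apart, was left out, 44 of the genes called lower and 3 of those called higher were called again.

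The test used mattered most for the low genes. DESeq2 on the same 12 libraries called all 60 again and 131 more (143 lower, 0.862%, and 48 higher, 0.289%, of 16586 genes with an adjusted p). Of the 131, 115 had a mean below 1 CPM in both groups, 85 had 0 counts throughout 1 group, and 0 passed the adjusted p in edgeR. In the other direction, limma-voom called 15 of the 60, and a fit of only the 6 libraries called 20. In that fit 16 of the 60 genes did not pass the low-count filter, so they entered the test through con-4c and si-2c.

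**Figure D5:**
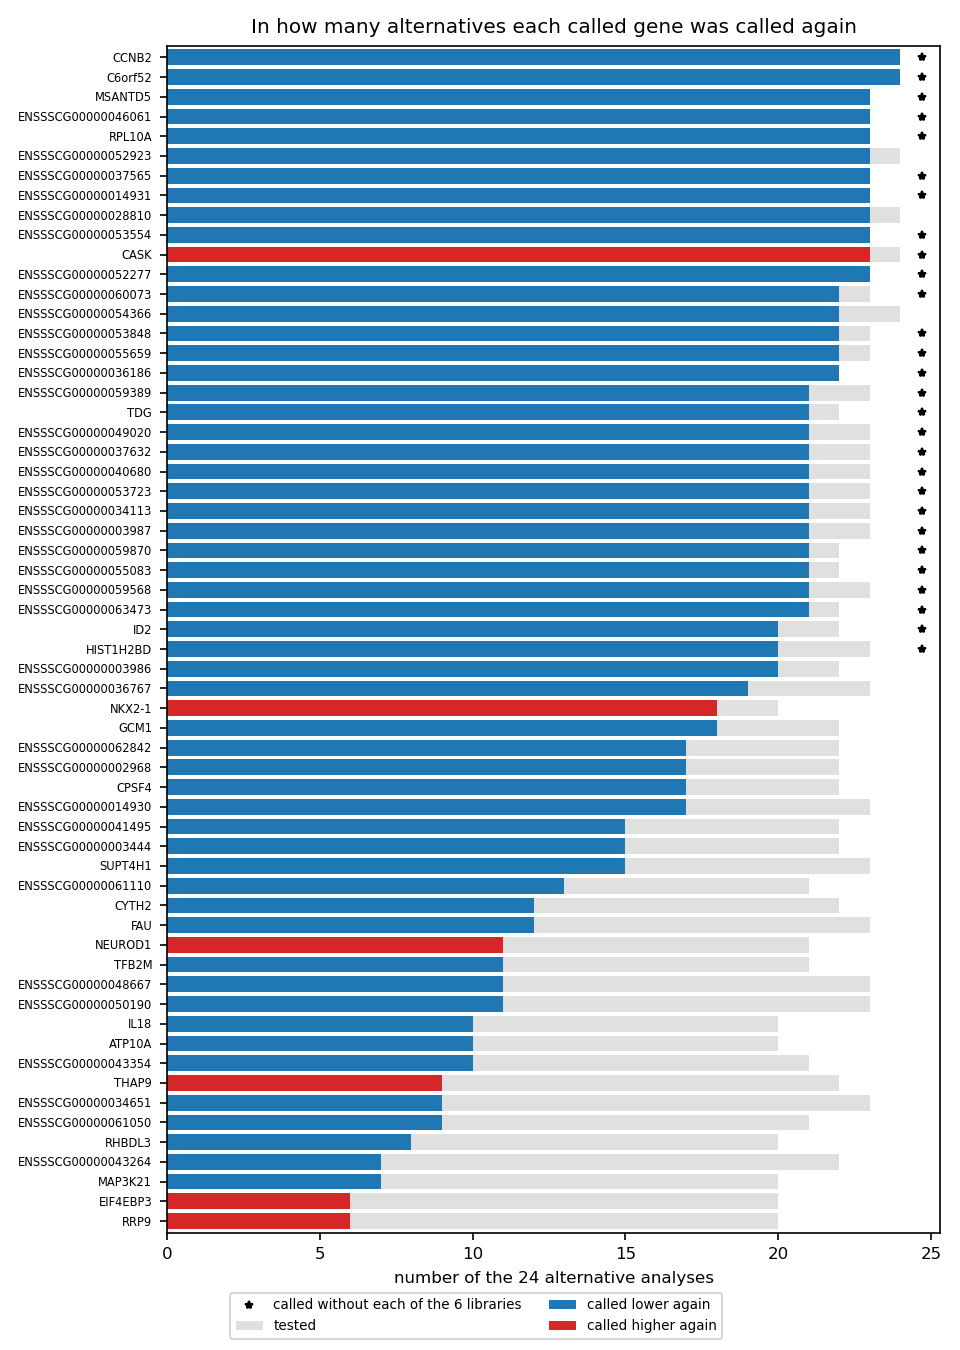
For each of the 60 called genes, the number of the 24 alternatives in which it was tested (grey) and called again in the same direction (blue lower, red higher). Stars mark the 28 genes called without each of the 6 libraries; CCNB2 and C6orf52 reach 24, and EIF4EBP3 and RRP9 reach 6.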

How the data were processed

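The deposited table held raw counts per Ensembl gene (whole numbers, not normalized by the authors) for 29329 genes in 12 libraries, and 0 other columns of per-sample values. The submitters' processing notes name cutadapt 1.9, HISAT2 2.2.1, StringTie 2.1.6, DESeq2 and edgeR, and the build Sscrofa11.1; the treatment of strand and of reads shared by several genes was not given in the sources used here. Of the identifiers, 15463 carried a symbol in the table. Positions come from RefSeq (Sscrofa11.1), matched by symbol for 21 of the 60 called genes.

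The fit used edgeR 4.0.16 under R 4.3.3, with filterByExpr, TMM factors, 1 model with a mean for each of the 4 groups over all 12 libraries, and the quasi-likelihood test with Benjamini-Hochberg adjustment over 17995 genes. The steps were tried on simulated counts in which genes had a common level over the 4 groups, apart from changes planted in si-4c. Genes low in con-2c and si-4c but high in con-4c and si-2c were not part of it. A gene was called where the adjusted p was under 0.05 and the change at least 2-fold (1 on the log2 scale). The SE came from the size of the log2 fold change over the root of F. DESeq2 1.42.0 and limma 3.58.1 were alternatives. Replicate counts varied beyond sampling noise (a chi-square of 8.21 to 30.5 for each degree of freedom), so none was treated as a second copy. Reads carried no molecular identifiers, so the floor of 3 counts covers counting error only, and only that of the group without counts. Ratios to the floor leave out the error of the other group and are not lower limits.

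The comparison, its members and the gene lists were chosen with earlier results of these data known. Named genes were CCNB2, every gene called higher, the 20 genes called lower with the smallest p among those with a symbol and at least 1 CPM in con-2c (9 besides CCNB2 met this), those also called lower in si-2c against con-4c, the called list members, and CCNB1, CCNB3, CCNA2, CDK1, BTG4, EIF1AX and DPPA2. Lists of cumulus (12 tested), sperm (10) and blood (9) genes gave 0 calls, and 0 symbols of the mitochondrially encoded list were in the table.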

Additional observations from a re-analysis of the deposited data

Results flagged for a closer look

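For 24 of 47 genes named with a fold change, the difference between si and control libraries was not the same in the 2 crossed pairs by a test of that contrast in edgeR (adjusted p below 0.05 over all genes tested). The contrast is equal to con-4c against con-2c plus si-4c against si-2c, so it is the summed difference between libraries titled 4c and 2c and not an interaction of siRNA with stage. Over all tested genes 548 (3.05%) passed at that threshold. Most of the 47 were named because they were called in si-4c against con-2c, which is 1 of the 2 differences compared, so the count of 24 is partly set by that choice and nothing is read from it against that share. In 15 of the 24 the size was at least 1 on the log2 scale. The values below are the log2 fold change of si-4c against con-2c minus that of si-2c against con-4c, and their causes were not tested.

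For CCNB2 the difference was 0.94 (adjusted p = 0.00872): it fell by 3.45 in si-4c against con-2c and by 4.39 in si-2c against con-4c.

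Among genes higher in si-4c the difference was 0.74 for CASK (adjusted p = 0.0383), 0.72 for M6PR (0.0356) and 1.31 for THAP9 (0.0474). For the 4 genes with 0 counts in con-2c it was 6.5 for NKX2-1, 7.84 for NEUROD1, 7.12 for EIF4EBP3 and 7.52 for RRP9, fitted values that depend on the prior count and are not bounds.

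Among genes lower in si-4c it was -2.25 for MSANTD5 (adjusted p = 3.26e-04), -0.94 for C6orf52 (0.00666), -1.32 for RPL10A (0.00300), -1.27 for ID2 (0.0336), -1.78 for CPSF4 (0.00899) and -5.32 for TDG (0.00243), the last again a fitted value against 0 counts. Among unnamed genes it was -2.44 for ENSSSCG00000036186 (adjusted p = 3.29e-04), -0.94 for ENSSSCG00000052923 (8.6e-04), -0.81 for ENSSSCG00000054366 (0.00489), -1.15 for ENSSSCG00000060073 (0.0137) and -1.31 for ENSSSCG00000055659 (0.0442).

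At smaller folds it was -0.63 for OOEP (adjusted p = 0.00601), -0.61 for RPP21 (0.00898) and 0.75 for SLC31A1 (0.00438). DPPA2 and EIF1AX, which were not called in si-4c against con-2c, had differences of 1.08 (adjusted p = 0.00142) and 1.23 (8.13e-05). Their log2 fold changes in si-2c against con-4c were -0.97 for DPPA2 and -0.96 for EIF1AX, beside 0.11 and 0.27 here.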

How the results depend on the processing

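The log2 fold change of CCNB2 kept its call throughout and lay between -3.52 and -3.41. The numbers of genes called did not, beside 6 higher and 54 lower. They were 21 and 110 with no low-count filter, 48 and 143 with DESeq2 on 12 libraries, 1 and 5 with DESeq2 on 6 (only 4292 genes had an adjusted p), 1 and 14 with limma-voom, 1 and 30 with glmTreat, and 2 and 21 with only the 6 libraries. With no minimum fold they were 19 and 102, at an adjusted p below 0.01 they were 1 and 31, and 32 were lower at a log2 fold change of at least 2. Genes called higher numbered 3 at a mean of at least 1 CPM and 1 at 10 CPM. A filter of 1 CPM over the 6 libraries, chosen after seeing the data, gave 3 and 29.

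Leaving out 1 library gave 2 to 14 higher and 33 to 65 lower, in fits that tested more genes. Higher counts moved most without con-2c replicate 3 (14), con-2c replicate 1 (12), si-4c replicate 2 or con-4c replicate 2 (2 each), and con-4c replicate 1 or si-2c replicate 1 (3 each), and lower counts without si-4c replicate 2 (33).

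The replicate block gave 3 higher and 40 lower and CCNB2 at -3.45. Same-numbered libraries of con-2c and si-4c shared no deviation over all tested genes (r = 0.015, -0.016 and 0.015), so no pairing by number was seen. Low genes weigh heavily in this check, and it cannot exclude a shared batch.

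Small differences changed sign without being called. CCNB1 was at 0.02 with library totals, at 0.01 with limma-voom, and between -0.13 (without con-2c replicate 3) and 0.09 (without con-2c replicate 1) when libraries were left out, with 0.02 without con-2c replicate 2 and 0.04 without si-4c replicate 3. Leaving out libraries moved CDK1 between -0.18 (con-2c replicate 3) and 0.01 (con-2c replicate 1), BTG4 between -0.06 (con-2c replicate 3) and 0.15 (con-2c replicate 1), and DPPA2 between -0.07 (si-4c replicate 1) and 0.19 (si-4c replicate 2). The causes were not tested. Depth limits mainly the genes below 1 CPM.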
